A study of Mus musculus with 8 samples.

Results

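Hnf4a and Onecut1 encode transcription factors of the hepatocyte, and the catalogue transcripts over and around the 2 genes were read in mouse liver after a fast. The members are the rows of the deposited transcript table that overlap, on either strand, the GENCODE spans of Hnf4a or Onecut1, or lie within 20 kb of them. There are 18 such rows of 83057 in the table, 10 at Hnf4a and 8 at Onecut1. They were chosen because their values differ between fasted and fed liver, so every difference between those groups in a member row is given here as a description, with no test. The rows are NONCODE catalogue entries for long non-coding RNAs, and none of them is annotated as the Hnf4a or Onecut1 messenger RNA itself.

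Livers came from male C57BL/6 mice of about 20 weeks, bought from the Jackson Laboratory, with 4 mice fed ad libitum and 4 fasted for 24 h. All were co-housed, assigned at random and killed at 10 am, and the labels name no transgene and no agent in either group. One stranded total-RNA library was made per mouse. Whole liver was used, so fewer cells of a type and less RNA per cell cannot be told apart in any value below.

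HNF4A is a nuclear receptor that binds DNA as a homodimer and keeps a large share of the hepatocyte programme on, including apolipoprotein, bile acid, clotting and gluconeogenic genes. Its gene has a downstream promoter that adult liver uses and a far upstream promoter that is known from pancreas and embryo, and a long antisense RNA, Hnf4aos, starts between them and runs back over the upstream promoter. ONECUT1, also called HNF6, binds DNA through a cut domain and a homeodomain, takes part in bile duct and pancreas development, and in hepatocytes regulates genes of glucose and bile acid metabolism together with HNF4A and the FOXA factors.

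The sequences that carry the loci are the starts of these transcripts and the Hnf4a coding exons under the row with the most reads per base. The promoters below come from RefSeq on GRCm38.p6 and run from 250 bases before to 50 bases after each start, 5′ to 3′ on the strand of the gene. Capitals mark matches to any of 4 motifs searched on both strands, which were CAAAGTC (the centre of the HNF4 consensus), AGGTCA (the nuclear receptor half-site), ATCAAT (the ONECUT core) and TGTTTAC (the FOXA core). The first sequence is the upstream Hnf4a promoter at chr2:163506607-163506906 on the plus strand, the second is the Hnf4aos promoter at chr2:163541672-163541971 on the minus strand, the third is the downstream Hnf4a promoter at chr2:163546905-163547204 on the plus strand, and the fourth is the Onecut1 promoter at chr9:74861671-74861970 on the plus strand.
Hnf4a upstream promoter: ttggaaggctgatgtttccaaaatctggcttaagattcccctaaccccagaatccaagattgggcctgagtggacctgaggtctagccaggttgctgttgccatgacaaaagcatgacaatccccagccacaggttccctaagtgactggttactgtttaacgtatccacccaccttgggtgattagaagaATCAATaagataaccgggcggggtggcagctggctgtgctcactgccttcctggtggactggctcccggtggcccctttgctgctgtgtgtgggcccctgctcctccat
Hnf4aos promoter: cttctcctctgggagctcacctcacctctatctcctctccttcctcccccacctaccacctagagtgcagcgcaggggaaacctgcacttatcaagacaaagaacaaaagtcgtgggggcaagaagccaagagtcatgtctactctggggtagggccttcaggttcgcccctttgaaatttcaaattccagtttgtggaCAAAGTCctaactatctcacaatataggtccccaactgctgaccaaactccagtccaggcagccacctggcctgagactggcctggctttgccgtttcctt
Hnf4a downstream promoter: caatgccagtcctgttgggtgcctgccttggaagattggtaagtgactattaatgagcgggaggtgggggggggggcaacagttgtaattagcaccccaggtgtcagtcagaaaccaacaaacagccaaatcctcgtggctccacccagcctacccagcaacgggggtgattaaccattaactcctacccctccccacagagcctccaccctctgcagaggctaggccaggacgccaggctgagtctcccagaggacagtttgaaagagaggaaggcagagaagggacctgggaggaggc
Onecut1 promoter: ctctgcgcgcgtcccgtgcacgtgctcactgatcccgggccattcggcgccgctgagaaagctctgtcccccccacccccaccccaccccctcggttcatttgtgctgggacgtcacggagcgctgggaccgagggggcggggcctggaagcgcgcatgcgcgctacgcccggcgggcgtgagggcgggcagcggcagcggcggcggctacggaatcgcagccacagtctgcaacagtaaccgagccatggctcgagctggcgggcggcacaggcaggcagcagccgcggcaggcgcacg

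The upstream Hnf4a promoter held 1 ONECUT core, ATCAAT, which starts at position -59 from the RefSeq start. The Hnf4aos promoter held 1 HNF4 centre, CAAAGTC, at position -51. None of the 4 motifs is in the downstream Hnf4a window or in the Onecut1 window. Among 32851 mouse promoter windows of the same length, 7.54% held the ONECUT core, 4.44% the HNF4 centre, 16.3% the nuclear receptor half-site and 3.65% the FOXA core. These matches are descriptions of the letters and not binding sites.

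In GENCODE on mm10, Hnf4a spans chr2:163506808-163572910 on the plus strand. The upstream start (Hnf4a-205) and the downstream start (Hnf4a-202) are 40.4 kb apart. Hnf4a-203 and Hnf4a-204 have other starts, at chr2:163546817 and chr2:163550083. The Hnf4aos start lies 34.9 kb after the upstream Hnf4a start and 5467 bases before the downstream one. All 10 rows at Hnf4a are annotated on the minus strand, opposite to the gene. The spans of 8 overlap exons of Hnf4aos on its own strand, and 3 of these match the Hnf4aos-201, Hnf4aos-202 and Hnf4aos-203 transcripts in exon number and total intron length. By position, 1 row is exonic in Hnf4a, 5 are intronic, 1 lies upstream of the gene, and for 3 the exons used are not given in the table. Because no row lies on the strand of Hnf4a, the table holds no row for its messenger RNA as annotated.

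Onecut1 spans chr9:74861921-74891781 on the plus strand, and 6 of its 8 rows lie on the same strand. The one with the longest span, NONMMUT070033.2 at chr9:74848463-74891475, matches Gm20649-201, a non-coding transcript that starts 13.5 kb before Onecut1 and splices into its last exon. Of its 2739 bases, 2170 (79.2%) lie in that Onecut1 exon, and the remaining 569 bases (20.8%) are shared with other rows. The other 5 same-strand rows match transcripts of Gm16551, an upstream non-coding gene whose start is 13.9 kb before Onecut1, and share no exon base with Onecut1. All 6 contain the same 80 bases at chr9:74849132-74849211, so their counts are not independent. On the opposite strand, NONMMUT070036.2 lies over Gm28182, upstream of Onecut1, and NONMMUT134726.1 lies within Onecut1.

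**Figure D1:**
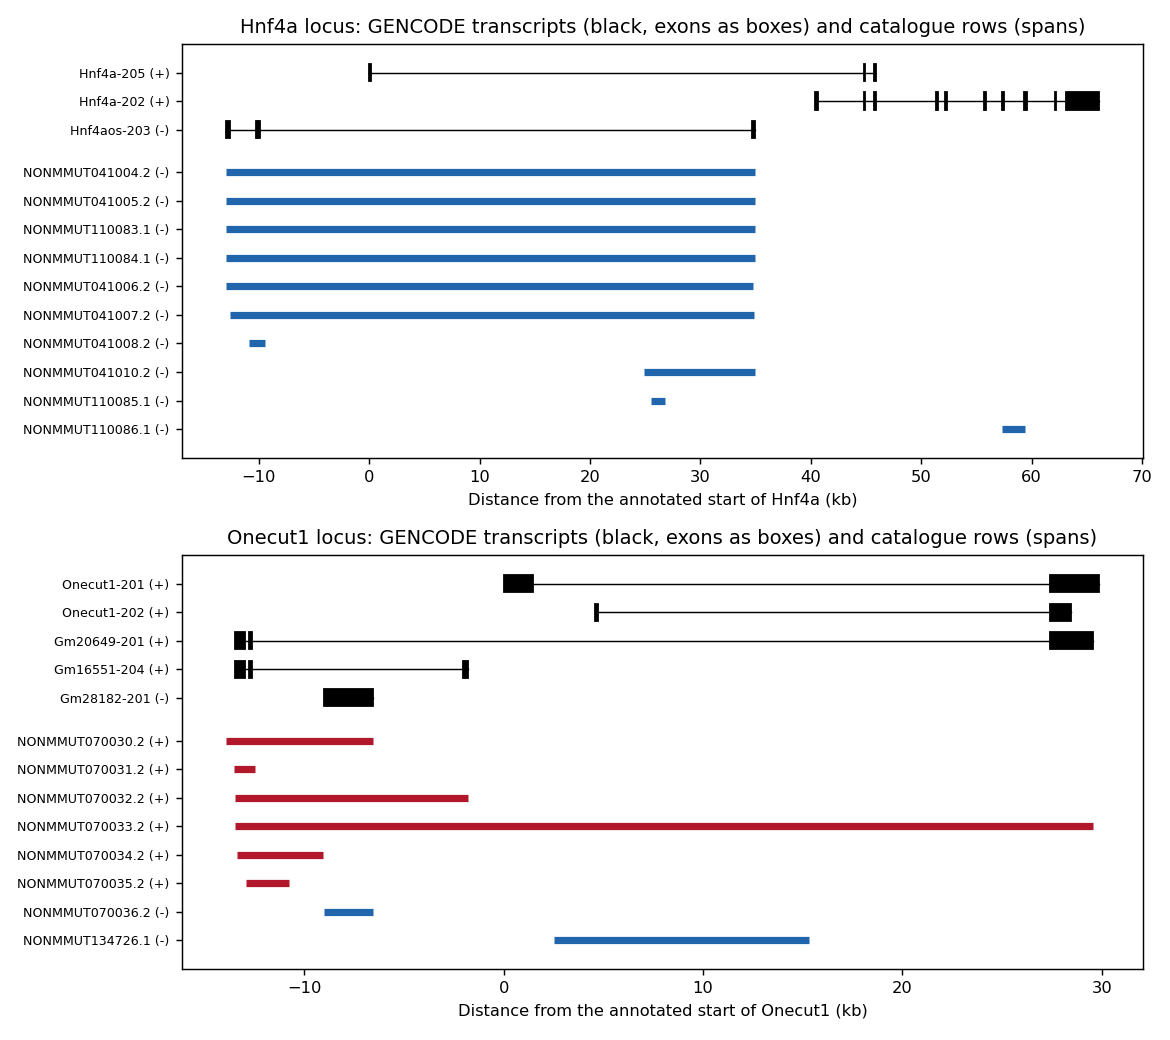
Positions of GENCODE transcripts (black, boxes are exons) and of the 18 catalogue rows (bars show spans without their exons, red for the plus and blue for the minus strand) along each locus, as distance in kb from the annotated start of Hnf4a (top) and Onecut1 (bottom). All 10 rows at Hnf4a are on the minus strand and most end at the Hnf4aos start, while NONMMUT110086.1 stands alone towards the 3′ end of the gene and NONMMUT070033.2 runs from upstream of Onecut1 into its last exon.

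The 20 kb limit did not cut between neighbouring rows. The farthest rows inside lay 9.5 kb from Hnf4a (NONMMUT041008.2, mean 1.90 CPM ad libitum and 4.42 CPM fasted) and 12.5 kb from Onecut1 (NONMMUT070031.2, 1.00 and 0.254 CPM). The nearest rows outside lay 33.8 kb from Hnf4a (NONMMUT108263.1, 2.93 and 5.77 CPM) and 32.3 kb from Onecut1 (NONMMUT070039.2, 0.346 and 0.67 CPM). CPM are counts scaled to the library total (without the mitochondrial 16S rRNA) times its TMM factor.

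The libraries held 51107745 to 119486211 reads without the 16S rRNA. Fasted replicate 4 stood apart from the other fasted libraries. A first principal component of log2 CPM (47.6% of the variance) put it at -4.37, with fasted replicates 1 to 3 at 90.5 to 103 and the fed libraries at -75.3 to -66.6. The share of odd read counts, among rows with 21 to 200 reads, was 9.21 to 10.3% in the ad libitum libraries, 16.5 to 17.8% in fasted replicates 1 to 3 and 10.8% in fasted replicate 4. The part of this library difference in the values below was not tested, and values of fasted replicate 4 are therefore given beside those over all libraries.

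The row with the most reads per base at Hnf4a was NONMMUT110086.1, a 235-base transcript of 2 exons at chr2:163564164-163566230 on the minus strand. Its ends lie inside exons 7 and 8 of Hnf4a-202, which are coding. Hnf4a has an intron of 1811 bases there and the row one of 1832 bases, 21 more. The Hnf4a exon bases between the ends of the row, 146 from exon 7 and 110 from exon 8, are shown on the Hnf4a strand from the GENCODE transcript, with the exon 8 bases in capitals, because any read of the Hnf4a messenger RNA from this stretch would carry them.
Hnf4a exons under NONMMUT110086.1: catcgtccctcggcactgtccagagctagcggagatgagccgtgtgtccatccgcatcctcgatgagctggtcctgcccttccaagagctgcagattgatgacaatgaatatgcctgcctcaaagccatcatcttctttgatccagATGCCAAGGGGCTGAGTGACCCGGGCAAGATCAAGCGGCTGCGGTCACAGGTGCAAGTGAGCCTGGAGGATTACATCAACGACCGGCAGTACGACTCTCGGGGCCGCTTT

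NONMMUT110086.1 held 1910, 1481, 981 and 1799 reads in the fed mice (ad libitum replicates 1 to 4), and 7113, 7248, 4606 and 2606 reads in the fasted mice. Scaled, the ad libitum libraries lay at 27.3, 26.6, 19.3 and 25.8 CPM and the fasted ones at 56.7, 53.8, 57.0 and 32.5 CPM. All 4 fasted libraries were above all 4 ad libitum libraries, with fasted replicate 4 much nearer to the fed level than the other three. The mean was 24.8 ± 3.67 CPM ad libitum and 50.0 ± 11.7 CPM fasted (SD, n = 4 each). The log2 change of the edgeR model was 1.01 ± 0.18 (SE) over all libraries, 1.17 ± 0.12 in fasted replicates 1 to 3 and 0.39 ± 0.17 in fasted replicate 4, which is 2.25-fold and 1.31-fold the ad libitum mean.

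Whether these reads come from an antisense RNA or from Hnf4a messenger RNA cannot be told apart in this table. The library kit keeps the strand, but whether the counting used it is not given in the sources used here. Elsewhere in the table, 20 pairs of single-exon rows lie on opposite strands with at least 90% overlap and at least 100 reads on average in the higher row. In 12 of these the lower count was within 10% of the higher, and the median ratio of lower to higher was 0.939.

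The row with the most reads at Hnf4a was NONMMUT110083.1, a 12001-base transcript of 9 exons over the whole span of Hnf4aos (chr2:163493808-163541721). It held 11684, 9005, 11287 and 11141 reads in the ad libitum libraries and 28165, 28920, 16408 and 20794 reads in the fasted ones. These are 167, 162, 223 and 160 CPM against 224, 214, 203 and 259 CPM. The groups overlapped, because ad libitum replicate 3 reached the fasted range. The means were 178 ± 30.0 and 225 ± 24.3 CPM, and the log2 change was 0.34 ± 0.13 over all libraries, 0.27 ± 0.12 in fasted replicates 1 to 3 and 0.54 ± 0.18 in fasted replicate 4. Fasted replicate 4 was thus the highest library for the long Hnf4aos row and the lowest fasted library for the exon 7 and 8 row.

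NONMMUT041010.2 (chr2:163531709-163541711, 2 exons, 2237 bases) covers the 5′ part of Hnf4aos inside the first intron of the upstream Hnf4a transcript. Its levels were 23.6, 22.5, 35.0 and 24.1 CPM ad libitum and 32.1, 31.9, 28.8 and 34.7 CPM fasted. Ad libitum replicate 3 was the highest of all 8 libraries, as it was the highest ad libitum library for NONMMUT110083.1, whose span contains this row. The log2 change was 0.28 ± 0.13 over all libraries, 0.23 ± 0.14 in fasted replicates 1 to 3 and 0.40 ± 0.20 in fasted replicate 4.

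NONMMUT041008.2 (chr2:163495927-163497314, 2 exons, 1285 bases) lies upstream of Hnf4a, within the 3′ part of the Hnf4aos span. It held 178, 59, 122 and 112 reads ad libitum and 504, 274, 340 and 594 reads fasted, which are 2.54, 1.06, 2.41 and 1.61 CPM against 4.01, 2.03, 4.21 and 7.41 CPM. Fasted replicate 4 was the highest library and fasted replicate 2 lay within the ad libitum range. The log2 change was 1.20 ± 0.44 over all libraries, 0.84 ± 0.35 in fasted replicates 1 to 3 and 1.96 ± 0.46 in fasted replicate 4.

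The other 6 rows at Hnf4a had ad libitum means of 0.408 to 2.34 CPM, and their groups overlapped. NONMMUT041004.2, which matches Hnf4aos-203, was at 2.34 ± 0.328 CPM ad libitum and 2.47 ± 0.696 CPM fasted, with a log2 change of 0.07 ± 0.20. NONMMUT041005.2, which matches Hnf4aos-202, had a log2 change of -0.16 ± 0.29, and NONMMUT041007.2, which matches Hnf4aos-201, one of 0.17 ± 0.30. NONMMUT110084.1, NONMMUT041006.2 and NONMMUT110085.1 had log2 changes of -0.07 ± 0.27, 0.41 ± 0.37 and 0.25 ± 0.21. The log2 changes of these 6 rows were 0.24 to 1.00 in fasted replicate 4. The sign differed between settings for NONMMUT041004.2 (-0.07 to 0.25), NONMMUT041005.2 (-0.36 to 0.03) and NONMMUT110084.1 (-0.32 to 0.16), so no direction is given for them. In fasted replicate 4 all 10 rows at Hnf4a had a log2 change above 0, with a median of 0.42, against a median of -0.02 over all 40840 rows tested. The spans of 8 of these rows overlap Hnf4aos exons, so their counts may not be independent. The share of all rows above 0 is not given here, and nothing is read from this count.

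**Figure D2:**
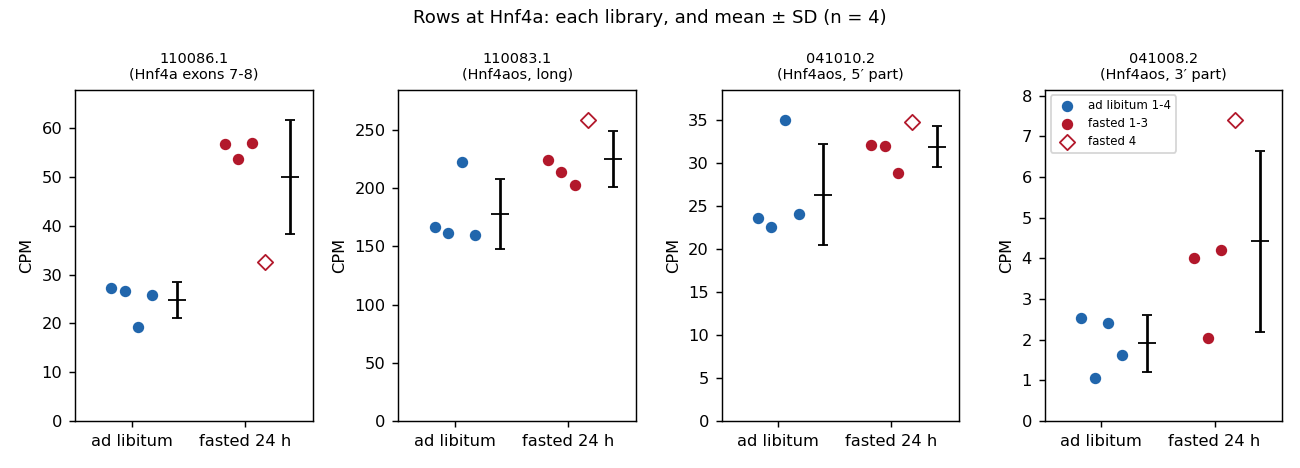
CPM in each library for the 4 rows at Hnf4a with the most reads (blue ad libitum, red fasted replicates 1 to 3, open diamond fasted replicate 4; horizontal bars are group means with SD, n = 4). Only NONMMUT110086.1, of these 4, has groups that do not overlap, with fasted replicate 4 at 32.5 CPM between the other fasted libraries and the fed ones.

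Of the 10 rows at Hnf4a, 1 (NONMMUT110086.1) passed an adjusted p under 0.05 in edgeR's quasi-likelihood test over all rows, in the higher direction, where 9.55% of all rows tested passed (17.2% in either direction). The same row alone had groups that did not overlap, higher in fasted, as did 9.09% of all rows. It passed also in fasted replicates 1 to 3, where 13.2% of all rows passed as higher (22.8% in either direction), and no row at Hnf4a passed in fasted replicate 4, where 2.06% did (3.29% in either direction). The members were chosen on this contrast, so nothing is read from these counts. The median log2 change of the 10 rows was 0.26, and that of all rows 0.01.

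Per length, the exonic row stood far above the rest of the locus. NONMMUT110086.1 had a mean of 106 CPM per kb ad libitum and 213 CPM per kb fasted, against 14.8 and 18.7 CPM per kb for NONMMUT110083.1 and 11.8 and 14.3 CPM per kb for NONMMUT041010.2. The other 7 rows lay at or below 3.44 CPM per kb. Compared within each library, the exonic row held 12.8-fold the reads per kb of the 2 rows that lie wholly in Hnf4a introns, NONMMUT041010.2 and NONMMUT110085.1. The log2 ratio was 3.68 ± 0.60 (SD, n = 8 libraries) with a range of 2.56 to 4.39, above 0 in 8 of 8 libraries (exact two-sided sign-flip permutation test, p = 0.0078, the smallest that 8 libraries allow). The same rows were compared in every library, so this p shows only that their order repeated. Nothing is read from it on exonic against intronic rows in general. By library, the log2 ratio was 3.62, 3.65, 2.56 and 3.52 ad libitum and 4.23, 4.17, 4.39 and 3.32 fasted. Fasted replicates 1 to 3 lay above all other libraries and fasted replicate 4 lay within the ad libitum range. The ratio is one of read density: without division by length it was 0.23 on the log2 scale (p = 0.3, the same exact permutation test).

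At Onecut1 the order was reversed, with less signal after the fast. NONMMUT070033.2, the row that ends in the last Onecut1 exon, held 3528, 4310, 3330 and 3068 reads ad libitum and 2854, 4516, 942 and 1172 reads fasted. The fasted libraries were sequenced more deeply, and after scaling these are 50.4, 77.5, 65.6 and 44.0 CPM ad libitum against 22.7, 33.5, 11.7 and 14.6 CPM fasted. All fasted libraries were below all ad libitum libraries, and fasted replicate 4 lay among the other fasted ones, between replicates 3 and 1. The means were 59.4 ± 15.1 and 20.6 ± 9.77 CPM, so the ad libitum mean was 2.88-fold the fasted one. The log2 change was -1.52 ± 0.37 over all libraries, -1.39 ± 0.41 in fasted replicates 1 to 3 and -2.02 ± 0.67 in fasted replicate 4.

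The Gm16551 rows upstream of Onecut1 were lower in the same libraries. NONMMUT070030.2, which matches Gm16551-203, lay at 4.86, 10.4, 5.76 and 6.60 CPM ad libitum and at 2.47, 3.31, 1.21 and 1.77 CPM fasted. Its log2 change was -1.64 ± 0.35 over all libraries, -1.55 ± 0.41 in fasted replicates 1 to 3 and -1.96 ± 0.67 in fasted replicate 4. As for NONMMUT070033.2, replicate 2 was the highest library in both groups and fasted replicate 3 the lowest of all, and the groups did not overlap.

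NONMMUT070034.2, which matches Gm16551-201, lay at 4.00, 8.60, 4.30 and 5.42 CPM ad libitum and at 2.33, 1.46, 1.16 and 1.45 CPM fasted. Its log2 change was -1.79 ± 0.29 over all libraries, -1.74 ± 0.34 in fasted replicates 1 to 3 and -1.94 ± 0.55 in fasted replicate 4. The 3 Gm16551 rows of shortest transcript length, NONMMUT070031.2, NONMMUT070032.2 and NONMMUT070035.2, had log2 changes of -1.97 ± 0.29, -1.96 ± 0.35 and -1.81 ± 0.37 at ad libitum means of 1.00, 1.16 and 0.597 CPM. The values in fasted replicate 4 were -1.51 ± 0.45, -1.95 ± 0.62 and -2.23 ± 0.67. In each of these rows too every fasted library was below every ad libitum one.

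The opposite-strand rows did not share this pattern. NONMMUT134726.1, within Onecut1, held 20, 10, 20 and 8 reads ad libitum and 67, 98, 15 and 8 reads fasted, with a log2 change of 0.72 ± 0.58 over all libraries, 1.03 ± 0.47 in fasted replicates 1 to 3 and -1.25 ± 0.86 in fasted replicate 4. Fasted replicates 1 and 2 were high and the other 2 fasted libraries lay within or below the ad libitum range. NONMMUT070036.2, over Gm28182, held 28, 6, 24 and 26 reads ad libitum and 42, 84, 6 and 6 reads fasted, with a log2 change of -0.23 ± 0.66 that ranged from -0.99 to 0.07 between settings, and of -2.16 ± 1.12 in fasted replicate 4. At these depths no direction was detectable for this row.

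**Figure D3:**
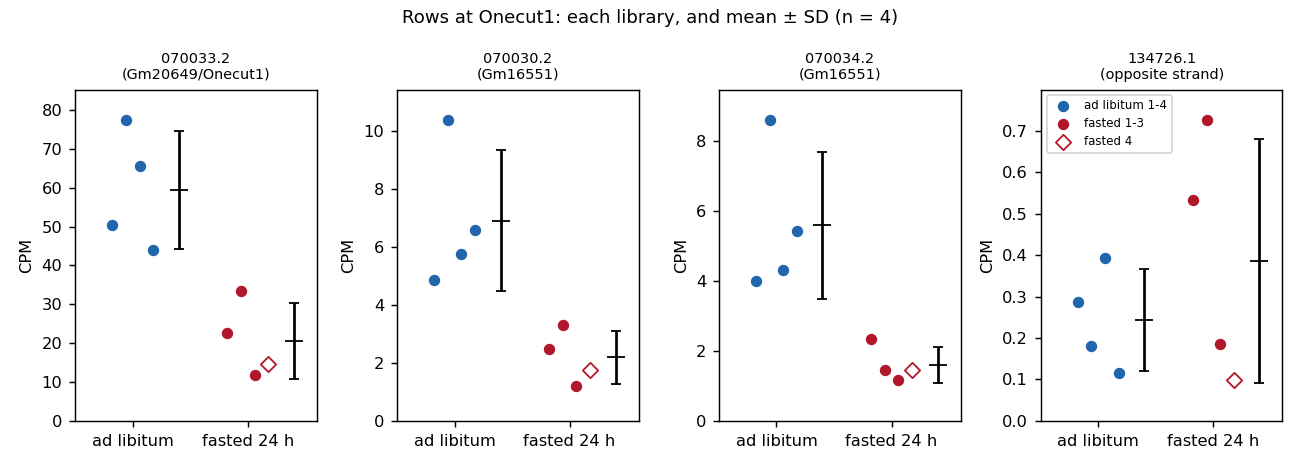
CPM in each library for the 3 rows with the most reads on the strand of Onecut1 and for the opposite-strand row within the gene, NONMMUT134726.1 (blue ad libitum, red fasted replicates 1 to 3, open diamond fasted replicate 4; horizontal bars are group means with SD, n = 4). The groups do not overlap in the 3 same-strand rows, where fasted replicate 4 lies among the other fasted libraries, and overlap in the opposite-strand row.

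Of the 8 rows at Onecut1, 6 passed as lower over all libraries, where 7.67% of all rows passed in that direction, and the same 6 had groups that did not overlap, as did 10.2% of all rows in that direction. In fasted replicates 1 to 3, 5 of them passed as lower (9.58% of all rows), and in fasted replicate 4 none did (1.23% of all rows). The row that lost the call without fasted replicate 4 was NONMMUT070033.2 itself. These counts describe the choice of the rows, which share bases, and nothing is read from them. The median log2 change of the 6 same-strand rows was -1.80 over all libraries and -1.96 in fasted replicate 4, in which all 8 rows at Onecut1 lay below 0. The share of all rows below 0 is not given here, so nothing is read from that count either.

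Per length, NONMMUT070033.2 was at 21.7 CPM per kb ad libitum and 7.52 CPM per kb fasted, while NONMMUT070034.2 was at 2.16 and 0.62 CPM per kb and NONMMUT070030.2 at 1.22 and 0.386 CPM per kb. The row with bases in the Onecut1 exon thus had the highest read density of the 6 in both groups. How the authors assigned reads from the 569 shared bases to the rows is not given in the sources used here. Within each library, the 6 same-strand rows together held 18.6-fold the reads per kb of the 2 opposite-strand rows. The log2 ratio was 4.22 ± 1.15 (SD, n = 8) with a range of 2.73 to 6.33, above 0 in 8 of 8 libraries (exact two-sided sign-flip permutation test, p = 0.0078, the smallest possible). This and the ratio at Hnf4a were the only 2 such tests, and Benjamini-Hochberg adjustment over them leaves both at 0.0078. Each compared the same rows, of unlike abundance, in every library. The p therefore gives only that their order repeated, and nothing further is read from it. Most same-strand reads came from NONMMUT070033.2, and no opposite-strand row lies over the last Onecut1 exon. The ratio thus compares rows over mostly different bases, and whether the counting used strand was not tested by it. By library, the log2 ratio was 4.36, 6.33, 4.37 and 4.77 ad libitum and 2.90, 2.73, 3.68 and 4.61 fasted.

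**Figure D4:**
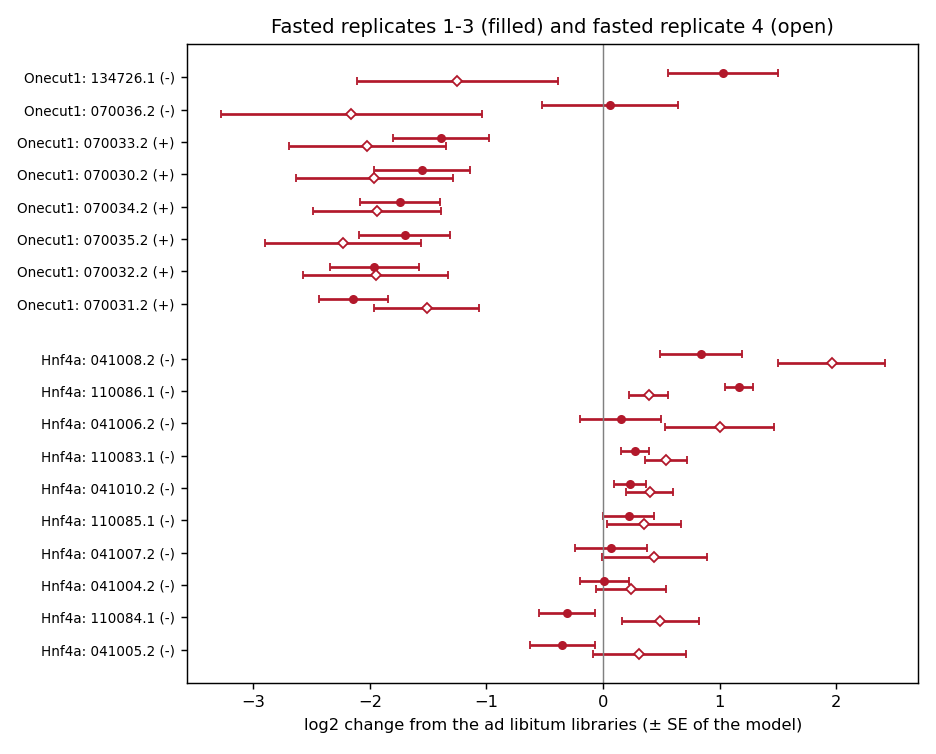
log2 change from the 4 ad libitum libraries (x axis, with the SE of the edgeR model) for the 18 rows, in fasted replicates 1 to 3 (filled circles) and in fasted replicate 4 (open diamonds), with the row's strand in brackets. The 6 plus-strand rows at Onecut1 lie below -1 in both, whereas NONMMUT110086.1 lies at 1.17 in fasted replicates 1 to 3 and at 0.39 in fasted replicate 4.

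Summed per gene over every row that overlaps its exons or, where exons are not given, its span, Hnf4a held 4 rows and Onecut1 2. The Hnf4a sum lay at 199, 187, 249 and 186 CPM ad libitum and 289, 273, 259 and 295 CPM fasted, with a log2 change of 0.44 ± 0.11 over all libraries and 0.52 ± 0.16 in fasted replicate 4. Most of this sum is the long Hnf4aos row. With the row over exons 7 and 8 alone, the only one whose ends lie in Hnf4a exons, the log2 change of the sum was 1.02. The Onecut1 sum lay at 51.2, 76.1, 67.0 and 43.7 CPM ad libitum and 23.7, 34.7, 11.6 and 14.6 CPM fasted, with a log2 change of -1.49 ± 0.38 over all libraries and -2.02 ± 0.69 in fasted replicate 4.

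Among the other genes in the windows, Hnf4aos (8 rows) summed to 213 ± 40.1 CPM ad libitum and 269 ± 29.7 CPM fasted, with a log2 change of 0.34 ± 0.13. Gm16551 and Gm20649 share the same 6 rows and summed to 74.4 ± 18.8 and 25.3 ± 11.3 CPM, a log2 change of -1.56 ± 0.35. Most of this sum is NONMMUT070033.2 (59.4 CPM ad libitum and 20.6 CPM fasted), which has 79.2% of its bases in the last Onecut1 exon. It is therefore not a level of Gm16551 apart from Onecut1. Gm28182 (1 row) had a log2 change of -0.22 ± 0.68. R3hdml, a coding gene that neighbours Hnf4a, had a value through 3 opposite-strand rows of the Hnf4aos span only (log2 change 0.34 ± 0.13), which is not a measurement of its messenger RNA.

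The protein-coding genes whose sums were most like that of Hnf4a over the 8 libraries, by Pearson correlation of log2 CPM among 5417 genes with at least 1 CPM, were Uimc1 (r = 0.976), Malsu1 (0.973), Pik3ip1 (0.959), Nebl (0.958) and R3hdml (0.955), the last of which shares rows with it. For Onecut1 they were Tirap (r = 0.97), Cstf3 (0.97), Marcks (0.969), Scd1 (0.962), which encodes a stearoyl-CoA desaturase, and Zmym1 (0.956). The libraries share a split by diet and depth that enters every such value, so these are descriptions.

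Other factors of the hepatocyte network were read from rows over their exons or spans, on both strands. As at the 2 loci, these rows are catalogue entries for long non-coding RNAs. Here and below, a rise or fall under a gene name is that of such rows. It is not a measurement of the messenger RNA. Of 29 listed, 13 had a testable sum, of which 1 passed as higher and 3 as lower (edgeR, adjusted over 15140 genes), where 13.8% and 11.5% of all genes did (25.3% in all), and the median log2 change was 0.01, as over all genes. Onecut2, the paralogue of Onecut1, fell from 204 ± 15.4 to 151 ± 21.3 CPM (log2 change -0.44 ± 0.11, edgeR adjusted p = 0.016), and the groups did not overlap. In fasted replicate 4 its log2 change was -0.48 ± 0.18 with an edgeR adjusted p of 0.15, and over the alternatives the adjusted p ranged from 0.0023 to 0.094, above the threshold with library totals (0.094) and on leaving out ad libitum replicate 4 (0.06) or fasted replicate 3 (0.052). The change of the Onecut1 row, -1.52, was larger in size than that of Onecut2. The difference between the 2 genes was not tested.

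Zbtb20, a zinc finger repressor of fetal liver genes, fell from 383 ± 34.0 to 249 ± 13.2 CPM (log2 change -0.62 ± 0.10, edgeR adjusted p = 0.0014), and by -0.60 ± 0.16 in fasted replicate 4 (edgeR adjusted p = 0.047, lost in 8 of 14 alternatives). Gata6, a zinc finger factor of early endoderm, was read only through 3 opposite-strand rows, which rose from 1.35 ± 0.296 to 2.64 ± 0.435 CPM (log2 change 0.96 ± 0.19, edgeR adjusted p = 0.0045) and passed in fasted replicate 4 as well (1.09 ± 0.27, edgeR adjusted p = 0.035, lost in 4 of 14 alternatives). Tbx3, a T-box factor of hepatoblasts, was read through 3 opposite-strand rows at 0.529 ± 0.146 and 0.248 ± 0.0936 CPM (log2 change -1.09 ± 0.35, edgeR adjusted p = 0.038), a call lost in 8 of 15 alternatives with an adjusted p of up to 0.13. Its log2 change in fasted replicate 4 was -0.61 ± 0.53 (edgeR adjusted p = 0.6). The 9 factors that did not pass had log2 changes of -0.25 to 0.41, and 6 of the 13 factors were read through opposite-strand rows alone. In fasted replicates 1 to 3, 1 factor passed as higher and 4 as lower, where 17.5% and 14% of all genes did (31.5% in all).

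**Figure D5:**
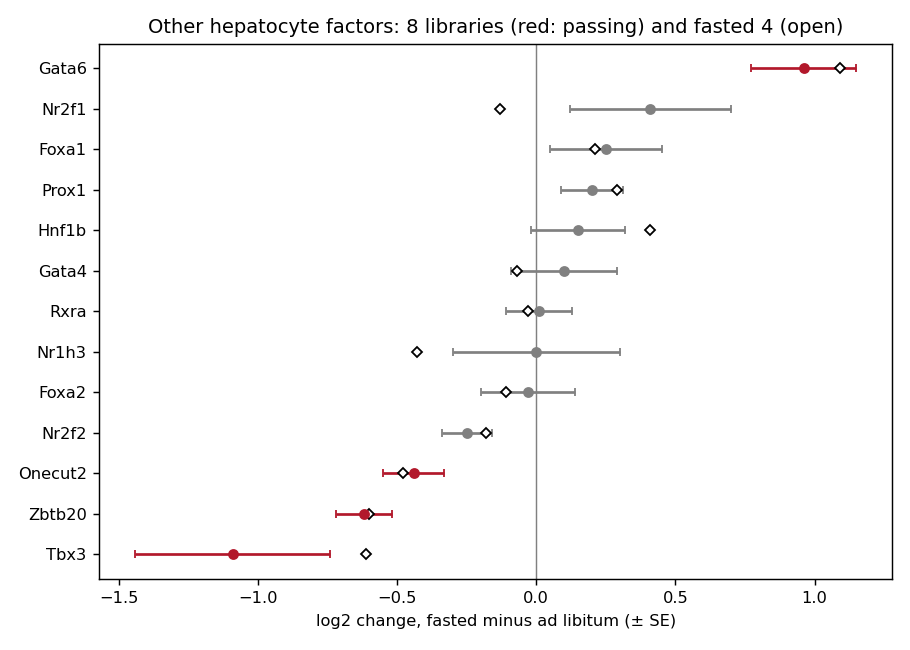
log2 change, fasted minus ad libitum, of the 13 other hepatocyte factors with a testable sum (circles with the SE of the edgeR model over 8 libraries, red where the adjusted p is under 0.05) and in fasted replicate 4 (open diamonds). Gata6 lies highest at 0.96 and Tbx3 lowest at -1.09, and in fasted replicate 4 Tbx3 is nearer to 0, at -0.61.

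Of 20 listed cofactors and modifiers of HNF4A, 16 were testable. Among these, 1 passed as higher and 1 as lower, where 13.8% and 11.5% of all genes did (25.3% in all). The median log2 change was -0.05. Ppargc1a, the coactivator that works with HNF4A on gluconeogenic genes, rose from 1.39 ± 0.525 to 3.16 ± 0.489 CPM (log2 change 1.19 ± 0.24, edgeR adjusted p = 0.0049), with all fasted libraries above all ad libitum ones. In fasted replicate 4 its log2 change was 1.01 ± 0.34 (edgeR adjusted p = 0.12). Smad3, which signals from the TGF-beta receptor, fell from 6.61 ± 1.09 to 4.62 ± 0.34 CPM (log2 change -0.52 ± 0.13, edgeR adjusted p = 0.015), a call lost with library totals (0.06) and without ad libitum replicate 1 (0.052). It did not pass in fasted replicate 4 (-0.46 ± 0.21, edgeR adjusted p = 0.26).

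Of 38 listed HNF4A target genes only 11 were testable, of which 5 passed as higher and 1 as lower, against 13.8% and 11.5% of all genes, with a median log2 change of 0.40, and 7 of the 11 were read through opposite-strand rows alone. Apoa4, an apolipoprotein, was read through 3 opposite-strand rows at 131 ± 14.4 CPM ad libitum and 1980 ± 574 CPM fasted (log2 change 3.92 ± 0.22, edgeR adjusted p = 1.7e-06). Ttr, which encodes the thyroxine carrier transthyretin and is a listed target of both factors, fell from 64.8 ± 4.71 to 26.6 ± 1.44 CPM (log2 change -1.29 ± 0.08, edgeR adjusted p = 4e-06) and passed also in fasted replicate 4 (-1.26 ± 0.14, edgeR adjusted p = 0.00032). Apoa2, of high-density lipoprotein, rose (0.58 ± 0.15, edgeR adjusted p = 0.017), a call lost in 4 alternatives, each of which leaves out 1 library, and not made in fasted replicate 4 (0.35 ± 0.21, edgeR adjusted p = 0.39). Mttp, which loads lipid onto apolipoprotein B, passed as well (0.40 ± 0.11, edgeR adjusted p = 0.025), a call lost in 7 of 16 alternatives, one of which, with rows of known exons and ends, gave a log2 change of 0.06 (edgeR adjusted p = 0.77). Mttp did not pass in fasted replicate 4 (0.34 ± 0.17, edgeR adjusted p = 0.31). In fasted replicate 4, 1 of the 11 passed as higher and 1 as lower, where 3.1% and 2.09% of all genes did (5.18% in all), and in fasted replicates 1 to 3, 6 passed as higher and 1 as lower, where 17.5% and 14% of all genes did. Of 13 listed ONECUT1 targets 4 were testable, and Ttr was the one that passed, as lower, where 11.5% of all genes did.

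Rows over cell markers were set beside the liver label, but many markers had no row. Their sums are not levels of the marker messenger RNAs. The 3 hepatocyte markers with a row summed to 461 to 683 CPM ad libitum, 1390 to 1810 CPM in fasted replicates 1 to 3 and 1230 CPM in fasted replicate 4, most of it from Cps1, the first enzyme of the urea cycle. The 5 cholangiocyte markers with a row, from the lineage that needs ONECUT1 in development, summed to 1.29 to 2.18, 1.40 to 1.75 and 1.23 CPM. The 2 Kupffer cell markers summed to 4.07 to 5.53, 3.49 to 3.72 and 4.04 CPM, the 5 endothelial markers to 92.8 to 118, 91.2 to 96.5 and 106 CPM, and the 3 lymphocyte markers to 5.85 to 9.47, 5.65 to 8.97 and 8.01 CPM. Most of each of these sums came from a single gene. These were Csf1r, Ptprb and Ptprc, with ad libitum means of 4.68, 98.5 and 7.81 CPM. The 5 stellate cell markers summed to 21.5 to 37.8 CPM ad libitum, 58.3 to 74.7 CPM in fasted replicates 1 to 3 and 27.9 CPM in fasted replicate 4. The stellate sum thus separated fasted replicates 1 to 3 from the other 5 libraries, as NONMMUT110086.1 did. Most of that came from Reln, which encodes the matrix protein reelin, at 7.08 to 13.5 CPM ad libitum, 46.1, 52.7 and 58.4 CPM in fasted replicates 1 to 3 and 11.4 CPM in fasted replicate 4 (log2 change 2.16 ± 0.52 over all libraries, edgeR adjusted p = 0.028, lost in 8 of 16 alternatives). The other 2 passing stellate markers were lower, Lrat by a log2 change of -0.91 ± 0.23 (edgeR adjusted p = 0.019, lost in 2 of 16 alternatives) and Col1a1, whose groups overlapped, by -1.07 ± 0.32 (edgeR adjusted p = 0.028, lost in 6 of 15). Of the other markers, Cps1 passed as higher (1.56 ± 0.16, edgeR adjusted p = 8.8e-05) and Ttr as lower, both also in fasted replicate 4. Csf1r of macrophages passed as lower (-0.43 ± 0.12, edgeR adjusted p = 0.024, lost in 7 of 16 alternatives). Stab2 of sinusoidal endothelium (0.64 ± 0.16, edgeR adjusted p = 0.014, kept in all 16 alternatives) and Cd79a of B cells (2.19 ± 0.62, edgeR adjusted p = 0.024, lost in 7 of 14) passed as higher, each read through opposite-strand rows alone, and the Cd79a groups overlapped. None of these 5 markers, nor Reln, passed in fasted replicate 4, with log2 changes of -0.76 for Lrat, -0.34 for Col1a1, -0.28 for Csf1r, 0.22 for Stab2, 0.31 for Cd79a and 0.27 for Reln (edgeR adjusted p = 0.36 to 0.89). No cholangiocyte marker passed (3 tested), and no marker with a row was at 0 in all libraries. However, Apob, Krt7, Epcam and Des did not pass the filter. Their ad libitum means were 0.0247, 0.0143, 0.0342 and 0.0071 CPM. The part of cell composition in the values of Hnf4a and Onecut1 was not tested.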

How the data were processed

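Liver RNA of 8 mice was analysed from 1 deposited table of NONCODE transcripts. Per the file headers, the authors deposited counts (raw reads) and RPKM values per library, with other annotation values (exon number and length) and a CNCI coding-potential score per transcript. Per the submitters' processing notes, bcl2fastq 2.17, BWA and mm10 were used. The counting tool and its use of strand and of multi-mapped reads are not stated in any source used here. Counts were used and an empty cell was read as 0. The RPKM values imply library totals equal to the summed counts in all libraries but ad libitum replicate 3, where they exceed the sum by 19737599 reads and the mitochondrial 16S rRNA cell is empty. That row was left out of all totals, which were then 51107745 to 119486211 reads per library. The number of reads limits precision only for the rows of low counts.

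Rows were placed on GENCODE vM21 with bedtools 2.31.1 and matched to a transcript by exon number, total intron length and ends within 3000 bases. This gave 9 of the 18 rows a transcript. Reads of overlapping rows may be counted more than once, in rows and in gene sums. All 40840 rows and 15140 gene sums that passed filterByExpr were fitted with edgeR 4.0.16 (R 4.3.3, TMM, robust quasi-likelihood F test, two-sided, Benjamini-Hochberg adjustment over all features, threshold 0.05). A second fit gave fasted replicate 4 its own term; it is a single sample whose spread is taken to equal that of the other groups. All 18 rows passed the filter. On simulated data, 34% of rows and 60% of gene sums changed 2-fold were recovered, with 8 false calls in each. Of those changed 1.5-fold, 6% of rows and 16% of gene sums were recovered. Ratios within libraries were tested by exact sign flips. Alternatives were RLE scaling, library totals, DESeq2 1.42.0, limma-voom (limma 3.58.1), 2 other filters, the replicate block and each library left out. The labels call the libraries biological replicates of 4 mice per group.

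The members and gene lists were chosen with earlier results of these data known. Genes named are those with a row in the windows, passing members of the factor and cofactor lists, the passing members with the lowest p of every other list (4 at most), and the 5 coding genes most correlated with each of the 2 genes. Marker genes that make up most of a sum, or that did not pass the filter, are named as well. One further factor of the list is not reported here.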

Additional observations from a re-analysis of the deposited data

Results flagged for a closer look

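In groups of 4 libraries, a value was singled out where its gap to the nearest of the others as a share of the range of the group exceeded Dixon's 95% critical value. Of 70 groups checked, 7 had such a library, and chance gives about 1 in 20.

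NONMMUT110086.1, the row over Hnf4a exons 7 and 8, was at 32.5 CPM in fasted replicate 4, far below the 53.8 to 57.0 CPM of the other fasted libraries. NONMMUT041007.2 (Hnf4aos-201) was at 0.549 CPM in fasted replicate 4, above the 0.408 to 0.43 CPM of the others. Ad libitum replicate 3 was high for both abundant Hnf4aos rows, at 223 CPM for NONMMUT110083.1 (others 160 to 167 CPM) and at 35.0 CPM for NONMMUT041010.2 (others 22.5 to 24.1 CPM), and these rows overlap. Among the list genes, Apoa4 was at 152 CPM in ad libitum replicate 4 (others 122 to 125 CPM), Cd79a, a B cell marker, at 0.173 CPM in ad libitum replicate 1 (others 0.0352 to 0.0568 CPM), and Gata6 at 2.00 CPM in fasted replicate 1 (others 2.77 to 2.90 CPM). No row at Onecut1 had such a library.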

How the results depend on the processing

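No value that passed its test reversed under the alternatives. The sign did differ between settings for 4 rows of small change: NONMMUT041004.2 (-0.07 to 0.25), NONMMUT041005.2 (-0.36 to 0.03), NONMMUT110084.1 (-0.32 to 0.16) and NONMMUT070036.2 (-0.99 to 0.07). The rows that carry the report kept their direction: the log2 change ranged from 0.90 to 1.16 for NONMMUT110086.1, from 0.26 to 0.46 for NONMMUT110083.1 and from -1.85 to -1.32 for NONMMUT070033.2. The Hnf4a sum ranged from 0.34 to 1.02 and the Onecut1 sum from -1.83 to -1.29. Ranges of member rows, here and above, are over 12 alternatives. They leave out DESeq2 and the 2 other filters, as do the ranges of these 2 sums. The within-library Hnf4a ratio was 0.23 without length division (main 3.68) and 3.58 to 3.84 with each library left out. The counts of passing features moved. Rows passing over all libraries (7033) were 4661 with library totals, 11275 without a filter, and 4158 to 11295 with each library left out, the highest without fasted replicate 4. In fasted replicate 4, rows passing (1344) were 2557 without a filter. Gene sums passing (3823) were 2343 to 5197 with each library left out, again highest without fasted replicate 4, and in fasted replicate 4 (785) they were 497 to 941. The share of higher calls among rows was 55.5%, against 45.1% with limma-voom and 66.3% without a filter. In fasted replicate 4 it was 62.5% of rows and 59.7% of gene sums, against 48.4% and 42.1% with library totals. The causes were not tested.

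The replicate numbers do not pair the mice: same-numbered libraries correlated at -0.00113 to 0.0397 in their deviations. With the number as a replicate block, 5650 rows and 2921 gene sums passed, which lost the calls of Tbx3 (adjusted p = 0.065) and Reln (0.1). A sum of Hnf4a over exonic rows on its own strand could not be made, as there are none. Depth limits the opposite-strand rows at Onecut1, with 6 to 98 reads per library.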
